A study of Mus musculus with 72 samples.

Results

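The Cyp2b genes encode cytochrome P450 enzymes of subfamily 2B, and 4 of them, Cyp2b9, Cyp2b10, Cyp2b13 and Cyp2b19, were measured by 6 of the array's 45101 probe sets. A probe set was taken when its only gene symbol was that of a member, a rule that gives 18193 genes in the whole data set. Cyp2b10 had 3 probe sets, 1422257_s_at, 1425645_s_at and 1451787_at, and the other genes had 1 each (1419590_at for Cyp2b9, 1449479_at for Cyp2b13 and 1419731_at for Cyp2b19). The suffix _s_at marks probes that can bind more than 1 similar transcript, so those 2 probe sets are uncertain between near copies of the gene. Probe sequences were not analysed here. Whether near-copy transcripts, or strain differences in the sequence under a probe, contributed to the values was therefore not tested for any of the 6 probe sets, those of Cyp2b9 and Cyp2b13 included.

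Whole liver and whole brain of male mice, with no treatment named in the labels, had been hybridised to Affymetrix arrays in a study of copy number variation and development. B6 stands for the inbred strain C57BL/6J and D2 for DBA/2J, and the third strain was 129S2. The labels name no engineered allele. Tissue was taken at the embryonic stage E14.5, on postnatal days 1 (P1) and 7 (P7) and at P90, an age of 11 to 14 weeks in the labels. The P90 animals had been purchased and the younger ones were F1 generation offspring of these strains. There were 3 arrays in each of 12 liver groups, described here, and in each of 12 brain groups, used as a reference for a tissue outside the liver. The labels do not say whether the 3 arrays of a group came from separate animals, so p-values measure the spread between arrays.

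P450 enzymes of subfamily 2B sit in the endoplasmic reticulum of hepatocytes and oxidise drugs, steroids and fatty acids with electrons supplied by a reductase. Cyp2b10 is the classical mouse gene induced by phenobarbital, through the nuclear receptor CAR (gene Nr1i3) with a contribution of PXR (gene Nr1i2). Cyp2b9 and Cyp2b13 are known as female-predominant genes of the adult liver, where the male pattern of growth hormone release keeps them low. Cyp2b19 is known from skin keratinocytes, where it makes epoxides of arachidonic acid.

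The 4 genes lie on chromosome 7 in the order Cyp2b10, Cyp2b13, Cyp2b9 and Cyp2b19 in RefSeq (GRCm38.p6), with the pseudogenes Cyp2b27-ps and Cyp2b28-ps between the first 2 and Cyp2b26-ps between Cyp2b13 and Cyp2b9. The 250 bases before the annotated start were compared because Cyp2b9 and Cyp2b13 had similar profiles over the liver groups, as described below, and Cyp2b10 did not. The windows come from this reference build only, and the sequences of the 3 strains were not compared. All 4 genes matched a RefSeq promoter window. The 3 shown are on the plus strand at chr7:26173159-26173408 for Cyp2b9, chr7:26061245-26061494 for Cyp2b13 and chr7:25897408-25897657 for Cyp2b10. Capitals in the Cyp2b9 and Cyp2b13 lines mark the 2 bases that differ between them, and capitals in the Cyp2b10 line mark the letters ATAAAA.
Cyp2b9: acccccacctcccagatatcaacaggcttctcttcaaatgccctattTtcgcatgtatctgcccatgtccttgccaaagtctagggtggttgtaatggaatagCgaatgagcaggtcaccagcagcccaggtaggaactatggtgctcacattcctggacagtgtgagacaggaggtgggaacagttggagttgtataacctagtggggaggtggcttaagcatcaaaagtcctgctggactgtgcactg
Cyp2b13: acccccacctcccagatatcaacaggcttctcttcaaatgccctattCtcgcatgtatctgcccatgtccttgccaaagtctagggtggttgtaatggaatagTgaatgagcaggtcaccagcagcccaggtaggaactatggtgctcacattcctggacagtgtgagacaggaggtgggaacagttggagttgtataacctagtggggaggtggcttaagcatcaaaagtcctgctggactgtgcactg
Cyp2b10: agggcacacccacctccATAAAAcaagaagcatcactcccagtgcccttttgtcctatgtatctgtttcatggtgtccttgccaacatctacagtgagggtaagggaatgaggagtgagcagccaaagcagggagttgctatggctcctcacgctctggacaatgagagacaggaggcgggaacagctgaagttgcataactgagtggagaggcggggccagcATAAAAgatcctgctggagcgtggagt
The Cyp2b9 and Cyp2b13 windows were identical at 248 of 250 bases (99.2%), with the substitutions T48C and C104T from Cyp2b9 to Cyp2b13, counted from 1 at the 5′ end of the window. Identity to the Cyp2b9 window was 70.0% for Cyp2b10 and 62.7% for Cyp2b19, over alignments with gaps.

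The windows were searched for 4 short motifs on both strands, and TATAAA and ATAAAA can overlap. TATAAA, the core of a TATA box, was in 12.4% of 32851 windows of 250 bases and in none of the 4 Cyp2b windows. ATAAAA was in 17.0% of all windows. It began 27 and 233 bases before the Cyp2b10 start and 9 and 246 bases before the Cyp2b19 start, and it was not in the Cyp2b9 and Cyp2b13 windows. AGGTCA, a half-site bound by nuclear receptors, was in 14.0% of all windows. It began 138 bases before the start in both Cyp2b9 and Cyp2b13 and 121 bases before it in Cyp2b19, and it was not in the Cyp2b10 window. TTCNNNGAA, the letters bound by STAT factors such as STAT5, was in 7.0% of all windows and in none of the 4. The phenobarbital-responsive enhancer of Cyp2b10 lies farther upstream and was not analysed here.

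The deposited values are log2 signals normalized apart in each tissue and stage, with array medians from 5.03 in P90 liver to 7.30 in E14.5 brain. Strains were therefore tested within a liver stage, and stages and tissues were compared by size only. A call of a strain difference needed 1.5-fold or more and, in limma's two-sided test, a Benjamini-Hochberg adjusted p under 0.05 over all 45037 probe sets that are not controls. All 72 arrays correlated best with the marker profile of their own strain, the weakest being a 129S2 P90 brain array (r = 0.33 over 400 marker probe sets). Hepatocyte markers stood on average at percentile 98.0 to 100 of their array in liver, and neuron markers at percentile 36.4 to 55.8 in liver and 87.0 to 91.8 in brain. In whole tissue, fewer cells of a type and less RNA per cell cannot be told apart.

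**Figure D1:**
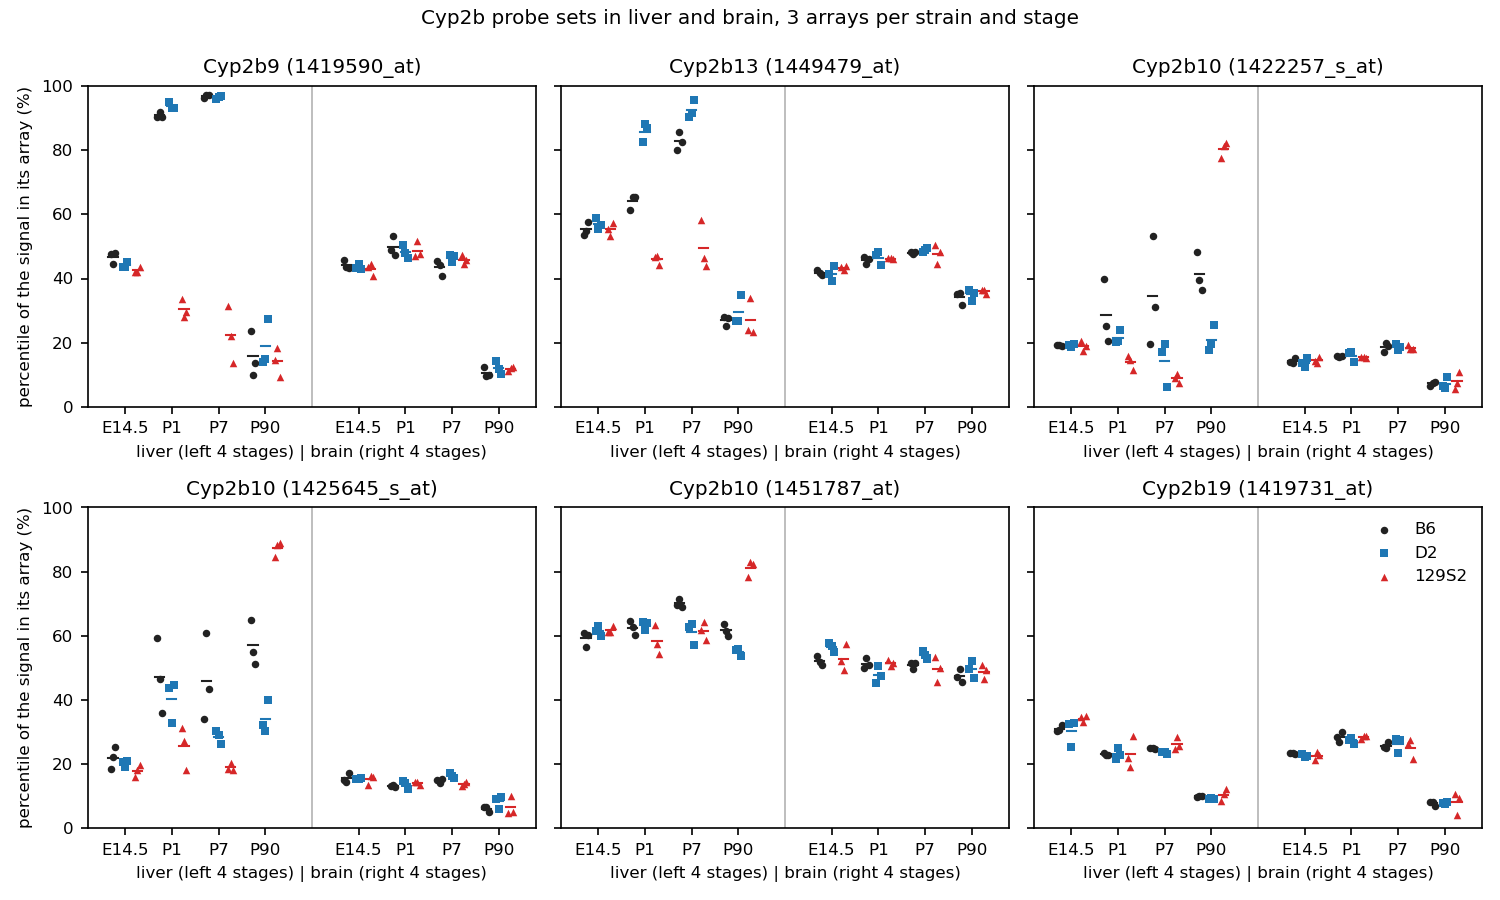
Each panel plots 1 Cyp2b probe set, with the 4 liver stages on the left and the 4 brain stages on the right of the grey line. The vertical axis is the percentile of the signal among all probe sets of the same array, points are arrays and short lines are means of 3 arrays. Cyp2b9 stood at percentile 90.3 to 97.2 in B6 and D2 liver at P1 and P7 and at 13.7 to 33.5 in 129S2, and the Cyp2b10 probe sets stood highest in 129S2 liver at P90.

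Cyp2b9 showed the largest strain differences of the group. It stood high in B6 and D2 liver at P1 and P7 and was low in 129S2 liver at the same stages, where its signal was 19.8-fold to 92.4-fold lower. At E14.5 and P90 no strain difference was called, and at P90 all 3 strains were low.

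At E14.5 the Cyp2b9 log2 signal in liver was 6.62, 6.45 and 6.64 in B6, 6.42, 6.39 and 6.47 in D2 and 6.33, 6.31 and 6.42 in 129S2. All arrays stood at percentile 42.1 to 48, and the 129S2 arrays were all below the B6 arrays. The difference between 129S2 and B6 was -0.21 ± 0.07 (log2, SE, n = 3 per strain; limma adjusted p = 0.17).

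At P1 the Cyp2b9 signal was 9.84, 10.05 and 9.80 in B6, 10.65, 10.29 and 10.26 in D2 and 5.77, 5.45 and 5.56 in 129S2. The highest 129S2 array lay about 4 log2 units below the lowest array of the other strains, so these groups did not overlap. The percentile was 90.3 to 91.8 in B6, 93.2 to 94.9 in D2 and 27.9 to 33.5 in 129S2. 129S2 was 19.8-fold below B6 (log2 difference -4.31 ± 0.13, limma adjusted p = 5.78e-06) and 28.0-fold below D2 (-4.81 ± 0.13, adjusted p = 1.09e-06). D2 was 0.50 ± 0.13 above B6, with every D2 array above every B6 array, and this missed the threshold (adjusted p = 0.0508).

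At P7 the Cyp2b9 signal was 11.11, 11.52 and 11.42 in B6, 10.97, 11.16 and 11.46 in D2 and 5.39, 4.84 and 4.23 in 129S2. B6 and D2 overlapped and 129S2 was apart from both, with more spread among its arrays than in the other strains (SD 0.58 against 0.22 in B6 and 0.25 in D2). The log2 difference of 129S2 was -6.53 ± 0.26 from B6 (92.4-fold, adjusted p = 2.55e-06) and -6.38 ± 0.26 from D2 (83.1-fold, adjusted p = 2.23e-06). In absolute size these ranked 1 and 2 among the 45037 probe sets of the 2 comparisons. For D2 against B6 the difference was -0.15, with a 95% interval from -0.73 to 0.42. The files hold no detection calls and the 129S2 arrays stood at percentile 13.7 to 31.4, so the folds are folds of RMA signal and not exact ratios of transcript.

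At P90 the Cyp2b9 signal was 3.74, 3.20 and 3.36 in B6, 3.41, 3.41 and 3.95 in D2 and 3.41, 3.56 and 3.21 in 129S2. The 3 groups overlapped at percentile 9.4 to 27.5. The difference between 129S2 and B6 was -0.04, with a 95% interval from -0.41 to 0.33.

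Cyp2b13, the second gene known as female-predominant, had its strains in the order D2, B6, 129S2 at P1 and P7. The 3 strains did not overlap at either stage, and all 3 differences were called at both. As for Cyp2b9, nothing was called at E14.5 or P90.

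The Cyp2b13 signal at E14.5 ran from 6.92 to 7.26 over the 9 liver arrays. At P1 it was 8.82, 9.49 and 9.31 in D2, 7.25, 7.48 and 7.48 in B6 and 6.45, 6.46 and 6.31 in 129S2. D2 stood 3.49-fold above B6 (log2 difference 1.80 ± 0.16, limma adjusted p = 0.000508) and 129S2 stood 6.97-fold below D2 (-2.80 ± 0.16, adjusted p = 5.2e-05). The difference of 129S2 from B6 was smaller, -1.0 ± 0.16 (adjusted p = 0.0159), and it missed the threshold in 5 of the 9 fits that left out 1 array (any 129S2 array, or B6 replicate 2 or 3).

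At P7 the Cyp2b13 signal was 9.68, 9.84 and 10.88 in D2, 8.41, 9.08 and 8.70 in B6 and 6.84, 6.19 and 6.02 in 129S2. The order of the strains was that of P1, with D2 replicate 3 higher than the rest. 129S2 was 5.21-fold below B6 (-2.38 ± 0.32, adjusted p = 0.00337) and 13.8-fold below D2 (-3.78 ± 0.32, adjusted p = 0.000251). The difference of D2 from B6 was 1.40 ± 0.32 (2.64-fold), close to the threshold (adjusted p = 0.0475). It was called without 129S2 replicate 1 or D2 replicate 1 and lost without any of the other 7 arrays, with a trended and robust variance (adjusted p = 0.0743), with the replicate number as a block (0.0659) and with each array centred on its median (0.0532). At P90 the 9 arrays ran from 3.76 to 4.27, at percentile 23.3 to 34.9.

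Cyp2b10, the phenobarbital-inducible gene, had its clearest strain difference in the adult. All 3 of its probe sets stood above B6 and D2 in 129S2 liver at P90, by 3.31-fold to 17.0-fold, in the direction opposite to that of Cyp2b9 and Cyp2b13 at P1 and P7. At P1 and P7 the 129S2 means of the 2 _s_at probe sets were the lowest of the 3 strains, and 1 of those differences was called.

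At P90 the signal of 1422257_s_at was 7.16, 7.57 and 7.65 in 129S2, 4.94, 4.47 and 4.30 in B6 and 3.55, 3.59 and 3.86 in D2. The 3 strains did not overlap. The log2 difference of 129S2 was 2.89 ± 0.17 from B6 (7.42-fold, limma adjusted p = 1.6e-06) and 3.79 ± 0.17 from D2 (13.9-fold, adjusted p = 2.51e-07).

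The signal of 1425645_s_at at P90 was 7.97, 8.45 and 8.54 in 129S2, 6.08, 5.34 and 5.11 in B6 and 4.15, 4.02 and 4.54 in D2. 129S2 was again above both, by 2.81 ± 0.24 (7.01-fold, adjusted p = 1.99e-05) and 4.08 ± 0.24 (17.0-fold, adjusted p = 1.6e-06). The third probe set, 1451787_at, was at 7.25, 7.75 and 7.67 in 129S2, 5.99, 5.80 and 5.70 in B6 and 5.42, 5.42 and 5.29 in D2. Its differences were smaller, 1.73 ± 0.12 from B6 (3.31-fold, adjusted p = 6.63e-06) and 2.18 ± 0.12 from D2 (4.53-fold, adjusted p = 1.42e-06).

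D2 also lay below B6 at P90 in all 3 Cyp2b10 probe sets. The difference was -0.90 ± 0.17 for 1422257_s_at (adjusted p = 0.00771), -1.27 ± 0.24 for 1425645_s_at (adjusted p = 0.00673) and -0.45 ± 0.12 for 1451787_at, the last not called (adjusted p = 0.0507). The call of 1422257_s_at was lost when all 36 liver arrays entered a single fit (adjusted p = 0.0697).

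At P1 and P7 the B6 arrays spread more widely than those of the other strains in the 2 _s_at probe sets (SD 0.55 to 0.94). At P7 the signal of 1425645_s_at was 5.56, 7.01 and 6.03 in B6, 5.33, 5.33 and 5.09 in D2 and 4.6, 4.72 and 4.54 in 129S2, with B6 replicate 2 far above the rest. 129S2 was below B6 by 1.58 ± 0.29 on the log2 scale (3-fold, adjusted p = 0.0156), a call lost without 129S2 replicate 1 (adjusted p = 0.0623) or replicate 3 (0.0681). The same B6 array was highest in 1422257_s_at, at 4.70, 6.56 and 5.38 in B6 against 3.90, 4.03 and 3.77 in 129S2, and that difference of -1.65 ± 0.42 was not called (adjusted p = 0.0627). With the replicate number as a block it was called (limma adjusted p = 0.0256), and in this comparison all 3 same-numbered pairs of arrays deviated together (r = 0.30 to 0.40).

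The probe set 1451787_at moved less at P7, with 7.57, 7.79 and 7.57 in B6, 7.13, 7.17 and 6.77 in D2 and 7.07, 7.23 and 6.88 in 129S2. B6 was above both other strains without overlap. D2 was lower than B6 by 0.62 ± 0.13 (1.54-fold, adjusted p = 0.0328), a call that held without 129S2 replicate 2, 129S2 replicate 3 or D2 replicate 2 and was lost in the other 6 fits that left out an array. 129S2 was lower than B6 by 0.58 ± 0.13 (adjusted p = 0.0383), just under the 1.5-fold minimum.

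At P1 no Cyp2b10 difference was called. The signal of 1425645_s_at was 7.12, 6.44 and 5.90 in B6, 6.33, 5.73 and 6.37 in D2 and 5.64, 5.42 and 4.81 in 129S2. Every 129S2 array lay below every B6 and D2 array, by 1.20 ± 0.33 from B6 on average (adjusted p = 0.14). The smallest adjusted p of the gene at P1 was 0.0971, for 1422257_s_at between 129S2 and B6. At E14.5 the 9 arrays ran from 4.81 to 5.07 for 1422257_s_at, from 4.72 to 5.39 for 1425645_s_at and from 7.10 to 7.54 for 1451787_at.

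Cyp2b19, the keratinocyte enzyme, stayed low everywhere. Its highest liver group mean was 5.90 (129S2 at E14.5), below the median of all liver values (6.28), which the other 5 probe sets exceeded in at least 1 liver group. It stood at percentile 8.4 to 34.9 in liver and 4.1 to 30.1 in brain. None of its 12 strain differences was called by limma (lowest adjusted p = 0.43, none with an unadjusted p under 0.05), and the largest was 0.24. Keratinocyte markers stood on average at percentile 40.8 to 47.6 in liver.

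**Figure D2:**
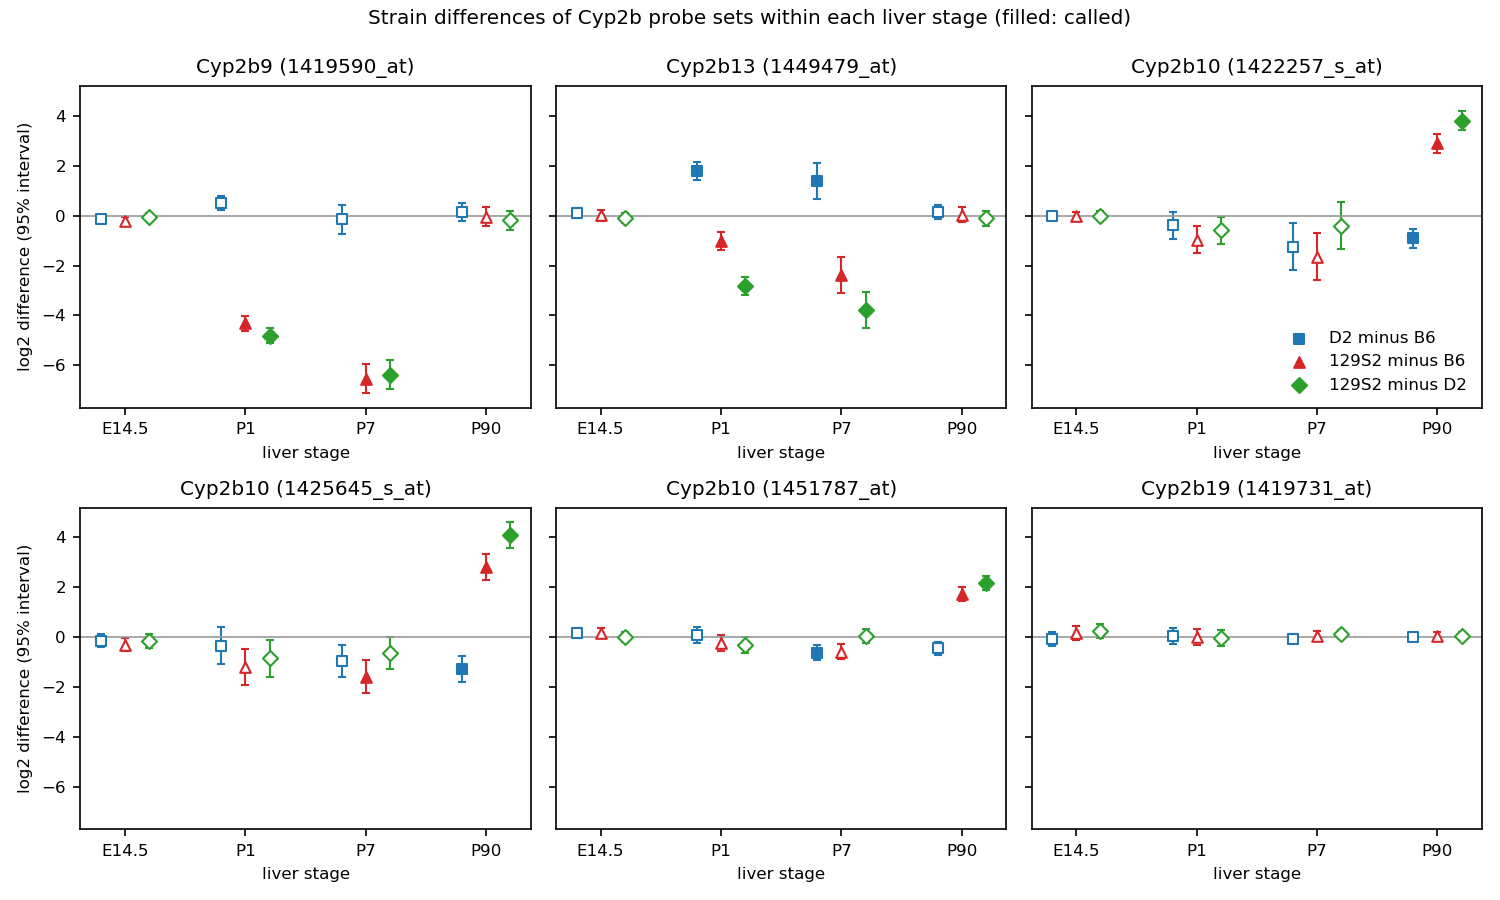
Each panel plots the log2 strain differences of 1 Cyp2b probe set within each liver stage, with 95% intervals from limma. Squares are D2 minus B6, triangles 129S2 minus B6 and diamonds 129S2 minus D2, and filled symbols were called. Cyp2b9 and Cyp2b13 were lowest in 129S2 at P1 and P7, with Cyp2b9 at -6.53 against B6, while the Cyp2b10 probe sets stood above in 129S2 at P90, by 1.73 to 4.08.

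Over the 6 probe sets and 3 pairs of strains, 0 of 18 differences were called at E14.5, 5 at P1, 7 at P7 and 8 at P90. The count of 0 at E14.5 came with 2 differences at an unadjusted p under 0.05 in limma, the only tool run. At E14.5, 2.91% of all probe sets were called between D2 and B6, 2.19% between 129S2 and B6 and 1.71% between 129S2 and D2.

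At P1 the calls were 1 of 6 between D2 and B6 (4.6% of all probe sets), 2 of 6 between 129S2 and B6 (1.42%) and 2 of 6 between 129S2 and D2 (3.97%). At P7 they were 2 of 6 (2.28%), 3 of 6 (2.55%) and 2 of 6 (3.07%) in the same order. At P90 they were 2 of 6 (3.23%), 3 of 6 (4.85%) and 3 of 6 (3.97%). The members' shares lay above those of all probe sets in each postnatal comparison, but 3 of the 6 probe sets belong to 1 gene and are no independent members.

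Whether a strain difference itself varied with stage was tested with an F test of strain by stage on the 36 liver arrays. It was called for 5 of 6 Cyp2b probe sets at an adjusted p below 0.05, against 22.4% of all probe sets. Cyp2b9 had F = 184 (limma adjusted p = 6.84e-17), rank 1 of 45037. Cyp2b13 had F = 37.0 (adjusted p = 1.57e-09), and the Cyp2b10 probe sets had F = 33.0, 37.8 and 47.6 (adjusted p = 4.8e-09, 1.29e-09 and 1.12e-10). Cyp2b19 had F = 0.561 (adjusted p = 0.833).

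Between neighbouring stages, the Cyp2b9 difference of 129S2 from B6 moved by -4.09 ± 0.27 from E14.5 to P1 (limma adjusted p = 1.01e-10), by -2.22 ± 0.27 from P1 to P7 (1.25e-05) and by 6.49 ± 0.27 from P7 to P90 (1.85e-15). For Cyp2b13 the difference of D2 from B6 moved by 1.70 ± 0.32 from E14.5 to P1 (adjusted p = 0.000541), and that of 129S2 from D2 by 3.67 ± 0.32 from P7 to P90 (4.81e-09). For Cyp2b10 the difference of 129S2 from B6 moved from P7 to P90 by 4.54 ± 0.42, 4.39 ± 0.41 and 2.31 ± 0.19 in the 3 probe sets (adjusted p = 1.11e-08, 1.76e-08 and 9.28e-10). These contrasts set differences of 1 normalization set against those of another, and unequal scales of the sets would alter them.

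Levels were compared between liver stages on the 36 liver arrays after quantile normalization together, as sizes without a test because stage and normalization set cannot be told apart. Cyp2b9 was higher at P1 than at E14.5 by 3.68 log2 units in B6 and 4.40 in D2, and lower by 0.65 in 129S2. From P1 to P7 the B6 signal was a further 1.58 higher and the D2 signal 0.82 higher, against -0.47 in 129S2. From P7 to P90 the size was -6.98 in B6, -6.62 in D2 and -0.51 in 129S2. On the values as deposited the B6 and D2 sizes from P7 to P90 were -7.91 and -7.61.

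Cyp2b13 was higher at P1 than at E14.5 by 2.39 in D2 and 0.56 in B6, and in 129S2 the size was -0.52. From P7 to P90 it was lower in all 3 strains, by -4.94 in D2, -3.65 in B6 and -1.21 in 129S2. Cyp2b19, low at every stage, had -0.96 in D2, -0.98 in B6 and -1.02 in 129S2 in that step. From E14.5 to P1 its 129S2 size was -0.60, beside -0.65 for Cyp2b9 and -0.52 for Cyp2b13. These 129S2 sizes of Cyp2b9 and Cyp2b13 cannot be told from a shift between normalization sets. Cyp2b13 was the 1 Cyp2b probe set of 6 whose P90 level was at least 2-fold under that of P7 in each strain (7.41% of all probe sets). The same held from P1 to P90 (8.35%). On the values as deposited, 3 of 6 probe sets were counted in each of these steps, and the P1 to P90 count was 0 of 6 after median centring. The counts rested on the 129S2 arrays: without 129S2 P7 replicate 1 the P7 to P90 count was 0. The P1 to P90 count was 0 without 129S2 P1 replicate 1 or P90 replicate 3, and 2 without 129S2 P90 replicate 2.

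Cyp2b10 was higher at P90 than at P7 in 129S2 by 4.58, 4.66 and 1.58 in 1422257_s_at, 1425645_s_at and 1451787_at. In B6 the sizes were 0.37, 0.61 and -0.59, and in D2 0.46, 0.30 and -0.38. On the values as deposited the 129S2 sizes were 3.56, 3.70 and 0.49. None of the 6 probe sets was 2-fold apart in 1 direction in all 3 strains from E14.5 to P1, where 8.56% of all probe sets were, or from P1 to P7 (1.23%).

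Against brain at the same stage, on 72 arrays quantile normalized together and again by size only, the Cyp2b9 signal in liver was higher at P1 by 3.43 in B6 and 4.06 in D2 and lower by 1.03 in 129S2. At P7 the sizes were 5.21 in B6, 4.89 in D2 and -1.37 in 129S2. In brain its probe set stood at percentile 40.8 to 53.3 from E14.5 to P7 and 9.7 to 14.4 at P90 in all 3 strains. The 129S2 liver signal at P1 and P7 stood below that of brain. Liver at E14.5 stood at percentile 42.1 to 48. Without detection calls, these signals do not show whether brain or 129S2 liver expressed Cyp2b9. Cyp2b13 was above brain at P7 by 2.55 in B6 and 3.82 in D2, and by 0.11 in 129S2.

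At P90 the Cyp2b10 probe sets 1422257_s_at and 1425645_s_at were at least 2-fold higher in liver than in brain in each strain, 2 of 6 where 15.2% of all probe sets were counted. The sizes were 2.23 and 3.26 in B6, 1.03 and 1.72 in D2, and 4.86 and 5.70 in 129S2. On the values as deposited 1 of 6 was counted, and the D2 size of 1422257_s_at was -0.0754. Without D2 P90 brain replicate 2 or D2 P90 liver replicate 3 the count was also 1. None of the 6 was counted in either direction against brain at E14.5 (23.1% of all probe sets), P1 (26.2%) or P7 (28%).

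The nuclear receptors that act on Cyp2b genes were read from their own probe sets. Nr1i3 (CAR), the receptor that mediates induction of Cyp2b10, was at percentile 20.2 to 25.0 in E14.5 liver and 80.8 to 95.8 at the later stages. At P90 its log2 signal was 10.17, 9.96 and 10.12 in 129S2, 8.70, 8.49 and 8.47 in B6 and 8.77, 8.77 and 8.67 in D2. The 129S2 arrays lay above all others, by 1.53 ± 0.08 from B6 (limma adjusted p = 9.41e-07) and 1.35 ± 0.08 from D2 (adjusted p = 2.73e-06). This is the stage and the direction of the 129S2 difference of Cyp2b10. Between D2 and B6 at P90 Nr1i3 was 0.19 ± 0.08 higher in D2 (limma adjusted p = 0.237), where the Cyp2b10 differences were -1.27 to -0.45. The part of CAR in the Cyp2b10 differences was not tested.

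At P1 the Nr1i3 signal was 9.85, 9.55 and 9.68 in 129S2, 9.82, 9.50 and 9.45 in B6 and 8.66, 8.96 and 9.03 in D2. D2 was lowest, by -0.71 ± 0.14 from B6 (adjusted p = 0.0176), and 129S2 was 0.81 ± 0.14 above D2 (adjusted p = 0.0113). At P7 129S2 was 0.51 ± 0.09 above B6 (adjusted p = 0.0106), under the fold minimum. The Cyp2b10 differences in these comparisons were -0.39, -0.35 and 0.08 for D2 against B6 at P1 and -0.85 to -0.31 for 129S2 against D2 at P1. For 129S2 against B6 at P7 they were -1.65 to -0.58. Nr1i2 (PXR) was called once, 0.66 ± 0.14 higher in 129S2 than in D2 at P90 (adjusted p = 0.012). In D2 against B6 at P90 it was -0.57 ± 0.14 (limma adjusted p = 0.0311), under the fold minimum. The Cyp2b10 differences of that comparison were -1.27 to -0.45. The part of PXR in the Cyp2b10 differences was not tested. The P450 reductase gene Por had no probe set of a single symbol and was not analysed here.

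**Figure D3:**
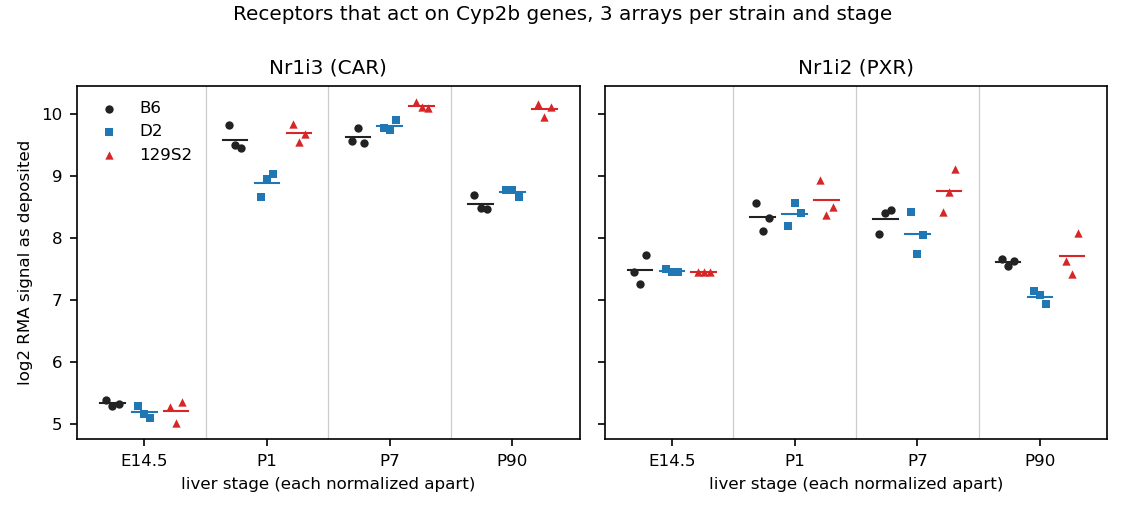
The panels plot the deposited log2 signal of Nr1i3 (left) and Nr1i2 (right) in liver by stage and strain, with a point per array and a line at the mean of 3 arrays. Stages were normalized apart, so only strains within a stage are comparable. At P90 the 129S2 arrays of Nr1i3 lay between 9.96 and 10.17 and those of B6 and D2 between 8.47 and 8.77.

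Gene lists around the Cyp2b genes were read with 1 probe set per gene, and each list is given by its calls and median log2 difference beside all 18193 genes, whose medians in the 12 comparisons lay between -0.02 and 0.02. Of 15 measured regulators of the CAR and PXR pathway, 1 was called between 129S2 and B6 at P90 (Nr1i3) where 5.94% of all genes were, and 2 between 129S2 and D2 (Nr1i3 and Nr1i2; 4.64%). The transcription factor Cebpb was -0.81 ± 0.20 in D2 against B6 at P90 (adjusted p = 0.0341), the 1 call of that comparison (3.88%). At P1 Foxa2, a hepatic pioneer factor, was 0.67 ± 0.11 higher in 129S2 than in B6 (adjusted p = 0.0209, 1.75% of all genes), and at P7 Cebpa was 0.78 ± 0.14 higher in 129S2 than in D2 (adjusted p = 0.0143, 3.8%). The list's median lay between -0.06 and 0.28 over the 12 comparisons.

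Other target genes of CAR and PXR were called in both directions at P90. Of 24 measured, 6 were higher and 3 lower in 129S2 than in B6 (median 0.33, 5.94% of all genes called), and 7 higher and 2 lower than in D2 (median 0.32, 4.64%). Between D2 and B6, 5 were higher and 3 lower in D2 (median 0.03, 3.88%). The arachidonic acid oxidase Cyp2c37 was -3.48 ± 0.09 in 129S2 against B6 (limma adjusted p = 3.49e-09), opposite to Cyp2b10. The organic anion transporter Slco1a4 was higher in 129S2 than in B6, by 1.98 ± 0.20 (adjusted p = 6.7e-05). Cyp3a13 was 2.25 ± 0.08 higher in 129S2 than in D2 (adjusted p = 2.54e-08), with D2 the low strain. It was -2.23 ± 0.08 in D2 against B6 (limma adjusted p = 2.01e-08), and its means were 10.97 in 129S2 and 10.95 in B6.

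At P1 and P7 calls of these targets went in both directions. At P1, 1 was higher and 2 lower in 129S2 than in B6 (1.75% of all genes), and 4 were higher and 4 lower than in D2 (3.88%). Between D2 and B6, 3 of 24 were lower in D2 (4.18%). The medians were -0.09, 0.07 and -0.16 in that order. With the replicate number as a block the calls were 1 higher and 1 lower, 4 higher and 1 lower, and 2 lower. The P450 genes Cyp2c50 (2.74 ± 0.30) and Cyp1a2 (2.52 ± 0.25) were higher in 129S2 than in D2 at P1 (adjusted p = 0.0016 and 0.00109), and the bile salt and conjugate exporter Abcc2 was -1.86 ± 0.23 against B6 (0.0048). At P7, 1 was higher and 3 lower in 129S2 than in B6 (3.29% of all genes, median -0.05). Against D2, 4 were higher and 2 lower in 129S2 (3.8%, median 0.28), or 3 and 2 with the block. In D2 against B6, 5 were lower (2.7%, median -0.35), or 3 with the block. Cyp2c37 was -2.43 ± 0.24 in 129S2 against B6 at P7 (adjusted p = 0.000556). At E14.5, where no Cyp2b difference was called, 3 of the 24 targets were lower in D2 than in B6 (3.36% of all genes were called), 2 were lower in 129S2 against B6 (2.69%), and 2 were higher and 2 lower in 129S2 against D2 (1.85%), with medians of -0.15, -0.03 and 0.12. The drug oxidase Cyp3a11 was 1.60 ± 0.30 above D2 in 129S2 at E14.5 (limma adjusted p = 0.0235).

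The other P450 genes of the chromosome 7 cluster were measured for 4 of 9. At P1, 2 of 4 were lower in 129S2 than in B6 (median -0.44, 1.75% of all genes called), Cyp2f2 and Cyp2a12. The same 2 were lower in 129S2 than in D2 (median -0.55, 3.88%). With the replicate number as a block the Cyp2a12 call against D2 was lost (limma adjusted p = 0.0584). In D2 against B6, 1 of 4 was higher (median 0.31, 4.18%). Cyp2f2, a P450 that activates naphthalene, was -2.05 ± 0.18 against B6 (limma adjusted p = 0.000765) and -2.81 ± 0.18 against D2 (0.000115), and 0.76 ± 0.18 higher in D2 than in B6 (0.039), the strain order of Cyp2b13. At P7, 2 of 4 were lower in D2 than in B6 (median -0.73, 2.7% of all genes called). In 129S2, 2 were lower than in B6 (median -0.56, 3.29%) and 2 higher than in D2 (median 0.38, 3.8%). The order of Cyp2f2 differed from that at P1: D2 was -2.05 ± 0.22 from B6 (adjusted p = 0.00084), and 129S2 was -1.15 ± 0.22 from B6 (0.0182) and 0.90 ± 0.22 above D2 (0.0453). At P7 Cyp2a12 was 1.37 ± 0.13 higher in 129S2 than in D2 (adjusted p = 0.000603), and Cyp2g1 was -1.09 ± 0.19 in 129S2 against B6 (0.0121). No gene of this list was called at P90 or at E14.5 by limma, the only tool run, although up to 4 of 4 (D2 against B6 at P90) had an unadjusted p under 0.05. With the replicate number as a block Cyp2g1 was called at P90, 0.81 higher in 129S2 than in B6 (limma adjusted p = 0.0273). The medians at P90 were 0.31 for D2 against B6, 0.07 for 129S2 against B6 and -0.25 for 129S2 against D2.

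Female-predominant liver genes other than Cyp2b9 and Cyp2b13 were measured for 15 of 20. At P1, 1 was lower in 129S2 than in B6 (1.75% of all genes) and 1 lower than in D2 (3.88%), Cyp3a16 in both (-0.96 ± 0.14 and -1.04 ± 0.14, adjusted p = 0.00924 and 0.00411), a fetal and neonatal P450. Between D2 and B6 at P1, 1 was higher in D2 (4.18%), Cyp3a44, another P450 of subfamily 3A, by 0.82 ± 0.15 (limma adjusted p = 0.0134). At P7, 1 call was higher in 129S2 against B6 (3.29%) and 3 were lower against D2 (3.8%). With the replicate number as a block the call of Cyp3a16 in 129S2 against D2 was lost (limma adjusted p = 0.0506). In D2 against B6 at P7, 3 were higher (2.7%), which were Cyp3a44, Slc22a26 and Atp6v0d2. The 4 calls of D2 against B6 at P1 and P7, Cyp3a44 in both, had the direction of the Cyp2b13 difference of D2 from B6. This direction was not particular to female-predominant genes. The male-predominant genes called in D2 against B6 at these stages, Cyp4a12a at P1 (1.12 ± 0.20) and Cyp2d9 at P7 (0.92 ± 0.13), were also higher in D2. Cyp2b9 was not called in that comparison (0.50 at P1 and -0.15 at P7). The organic anion transporter gene Slc22a26 was -0.88 ± 0.19 in 129S2 against D2 (adjusted p = 0.0284), and 0.90 ± 0.19 in D2 against B6 (0.0321). The medians at P1 were -0.02 and -0.13 for 129S2 against B6 and D2 and -0.05 for D2 against B6, and at P7 they were 0.05, -0.10 and 0.19. The calls of this list at P1 and P7 did not go below -1.04 on the log2 scale, where Cyp2b9 reached -6.53.

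At P90, 2 of the 15 were higher in 129S2 than in B6 (5.94% of all genes; median 0.13), and 3 were higher and 1 lower than in D2 (4.64%; median 0.13). Between D2 and B6, 2 were higher and 1 lower in D2 (3.88%; median 0.0044). The fatty acid hydroxylase Cyp4a14 was 5.11 ± 0.58 above B6 (limma adjusted p = 0.000182) and 6.34 ± 0.58 above D2 (4.71e-05), and the acyl-CoA thioesterase Acot3 was 1.67 ± 0.20 above B6 (0.000218). Both are also known as target genes of the fatty acid receptor PPARα. The receptor gene Ntrk2 was -1.67 ± 0.13 in 129S2 against D2 (adjusted p = 1.65e-05) and 1.93 ± 0.13 in D2 against B6 (5.33e-06).

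Of 10 measured male-predominant genes, 0 were higher and 4 lower in 129S2 than in B6 at P90 (5.94% of all genes called), and 0 higher and 4 lower than in D2 (4.64%). The adipokine gene Serpina12 was -4.60 ± 0.20 against B6 (limma adjusted p = 1.37e-07), the fatty acid elongase Elovl3 -1.85 ± 0.09 (5.09e-07) and the complement gene C6 -1.18 ± 0.08 (5.85e-06). The list's median at P90 was -0.32 against B6 and -0.29 against D2. None was called between D2 and B6 at P90 by limma (median -0.03, 5 of 10 at an unadjusted p under 0.05, 3.88%). At P1, 1 was higher and 1 lower in 129S2 than in B6 (1.75%), and 1 was higher in D2 than in B6 (4.18%). The lower one, C6, was lost with the replicate block (limma adjusted p = 0.128). At P7, 1 was higher in 129S2 than in B6 (3.29%), 1 higher and 2 lower than in D2 (3.8%), and 1 higher in D2 than in B6 (2.7%). Of 10 measured genes of growth hormone signalling, 0 were called at P90 or P1 by limma, where 1.75 to 5.94% of all genes were. Up to 4 of 10 had an unadjusted p under 0.05 (D2 against B6 at P1). At these shares, 0 of 10 does not set the list apart from all genes. The list's median lay between -0.09 and 0.23 over the comparisons at P1, P7 and P90. At P7 Igfals, which encodes a carrier of IGF1, was 1.22 ± 0.12 higher in 129S2 than in D2 (limma adjusted p = 0.000731, 3.8% of all genes called). It was -0.71 ± 0.12 in D2 against B6 (0.014, 2.7%). The receptor gene Ghr was 0.59 ± 0.13 higher in 129S2 than in B6 at P7 (0.0384, 3.29%). Each was the only call of the list in its comparison.

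Marker lists were set beside these differences. None of 8 measured hepatocyte markers was called by limma between strains at P1, P7 or P90, where 1.75 to 5.94% of all genes were. Up to 3 had an unadjusted p under 0.05 (129S2 against B6 at P90). At E14.5 Ahsg was called, at -1.01 ± 0.12 in D2 against B6 (limma adjusted p = 0.000998, 3.36% of all genes) and 0.70 ± 0.12 in 129S2 against D2 (0.0123, 1.85%). No bile duct marker (5 measured) was called at any stage (1.75 to 5.94%), with up to 1 at an unadjusted p under 0.05. At these shares, 0 calls do not set so short a list apart from all genes. Of 9 Kupffer cell markers, 4 were lower in 129S2 than in B6 at P1 (median -0.59, 1.75% of all genes called), 4 at P7 (-0.66, 3.29%) and 8 at P90 (-0.82, 5.94%). With the replicate number as a block, 3 were lower at P1. Against D2, 0 were called by limma in 129S2 at P1 (median -0.08, 4 of 9 at an unadjusted p under 0.05, 3.88% of all genes called). At P7, 3 were lower (-0.51, 3.8%), and at P90 1 was higher and 0 lower (-0.02, 4.64%). In D2 against B6, 3 were lower at P1 (2 with the block, median -0.44, 4.18% of all genes called) and 1 was higher at P7 (-0.22, 2.7%). At P90, 7 were lower in D2 (-0.80, 9 of 9 at an unadjusted p under 0.05, 3.88%). Those D2 calls stand beside Cyp2b13, higher in D2 than in B6 at P1, and Cyp2b10, lower in D2 than in B6 at P90. The log2 of the summed Kupffer signal at P7 was 13.75 to 13.85 in 129S2, 14.38 to 14.78 in B6 and 14.18 to 14.55 in D2. At P90 it was 11.55 to 11.59 in 129S2, 12.11 to 12.70 in B6 and 11.48 to 11.75 in D2. At P1 it was 12.57 to 13.02 in 129S2, 13.45 to 13.98 in B6 and 12.88 to 13.09 in D2. At E14.5, where no Cyp2b difference was called, 2 of 9 Kupffer markers were lower in 129S2 than in B6 (3 with the block, median -0.45, 2.69% of all genes called). In D2 against B6 at E14.5, 1 was lower (median -0.35, 3.36%). In 129S2 against D2, 0 were called (1 lower with the block, median -0.10, 1.85%). The part of these markers in the Cyp2b differences was not tested.

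Of 8 erythroid, 7 keratinocyte, 7 neuron and 5 astrocyte markers, at most 1 per list was called in any comparison (1.75 to 5.94% of all genes). These were Epb42, Alas2, Krt10, Map2, Syt1 and Slc1a2, of which the vesicle protein gene Syt1 was 1.53 ± 0.12 above B6 in 129S2 at P90 (limma adjusted p = 1.5e-05) and the microtubule protein gene Map2 -1.46 ± 0.17 against B6 at P1 (0.00273). With the replicate number as a block the erythroid marker Gata1 was called at P1. It was higher than in B6 in 129S2 (limma adjusted p = 0.0322) and in D2 (0.0348). The Krt10 call in D2 against B6 at P1 was lost with the block (0.0976). The erythroid medians were away from 0 at P1 and P7, the stages of the Cyp2b9 and Cyp2b13 differences. At P1 the median was 0.71 in 129S2 against B6 (5 of 8 at an unadjusted p under 0.05), 0.44 in 129S2 against D2 (2 of 8) and 0.37 in D2 against B6 (1 of 8). At P7 it was -1.03 in D2 against B6 (5 of 8), -0.35 in 129S2 against B6 (0 of 8) and 0.68 in 129S2 against D2 (3 of 8). The log2 of the summed erythroid signal at P1 was 14.43 to 14.84 in 129S2, 13.27 to 14.33 in B6 and 13.84 to 14.56 in D2, and at P7 it was 13.13 to 13.41 in 129S2, 12.99 to 14.09 in B6 and 12.31 to 13.52 in D2. Their part in the Cyp2b differences was not tested.

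The profiles of the members were also compared over the 12 liver group means, which share the normalization, as a description. Cyp2b9 and Cyp2b13 had r = 0.93, and the 3 Cyp2b10 probe sets had r = 0.85 to 0.96 with each other. Between Cyp2b9 and the Cyp2b10 probe sets r was -0.20 to 0.01. The genes most like Cyp2b9 were Akr1c18 (r = 0.92), E230029C05Rik (0.91), Tnfrsf18 (0.90), Brip1os (0.88) and Clec2l (0.88). Those most like Cyp2b13 were Tnfrsf18 (r = 0.97), Gbp2 (0.93), Lst1 (0.93), Rhoq (0.92) and Brip1os (0.92). For Cyp2b10 the top gene was Cyp2c38 for 1422257_s_at (r = 0.90) and 1425645_s_at (0.91) and Rnf186 for 1451787_at (0.81). The other top genes of these probe sets lay between 0.77 and 0.89.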

How the data were processed

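The authors deposited log2 RMA signals of Affymetrix arrays in 72 samples; RMA is named per the submitters' processing notes, with no version given. Equal values within pairs of arrays (1.55 to 4.35% inside a tissue and stage, 0 otherwise) show 8 sets of 9 arrays normalized apart. The files hold no detection calls, and the number of arrays limits the precision.

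Strain differences came from limma 3.58.1 in R 4.3.3 (lmFit, a mean for each strain on the 9 liver arrays of a stage, eBayes, two-sided), on all 45037 probe sets without a filter on low values, adjusted by Benjamini-Hochberg. Stage and tissue sizes used group means after quantile normalization, counted at 2-fold or more in each of 3 strains. Errors are SE unless named SD. The strain test was tested on simulated data. Alternatives were all 36 liver arrays, filters, variance models, array weights, a replicate block, other scalings, other fold minima and each array left out.

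The members and the lists were chosen with earlier results of these data known. Named were all members, Nr1i3, Nr1i2 and Por, of each list and stage up to 3 called genes with the largest differences, and the 5 genes most like each member above the liver median. A list gene was its probe set with the highest liver mean. Male labels were checked: Eif2s3y lay 1.36 to 4.32 above the array median and Xist from -0.65 to 1.07. No 2 arrays were identical (highest r = 0.998). Deviations of same-numbered liver arrays correlated above 0.1 in all 9 pairs at E14.5 (r from 0.21 to 0.70) and in all 3 pairs of 129S2 with B6 at P7 (0.30 to 0.40), where the numbers were taken to pair samples from the data, since the labels name no pairing. In the other comparisons 4 of 24 pairs did, and they were not. The strain fit has no block. Blocked values stand beside a member's result where they change a call. For 129S2 against B6 in the paired stages, the limma adjusted p with the block was 0.105 for Cyp2b9 at E14.5. At P7 it was 2.18e-05 for Cyp2b9, 0.00752 for Cyp2b13, and 0.00989 and 0.0109 for the Cyp2b10 probe sets 1425645_s_at and 1451787_at. Counts and calls of list genes are without the block unless blocked ones are named. The block changed more of them, such as Gstm3 between D2 and B6 at P90 (limma adjusted p = 0.0574, not called).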

Additional observations from a re-analysis of the deposited data

Results flagged for a closer look

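The strain difference changed between liver stages in 5 of 6 Cyp2b probe sets by the F test of strain by stage on 36 liver arrays (limma, Benjamini-Hochberg adjusted over 45037 probe sets, of which 22.4% passed). For Cyp2b9 the adjusted p was 6.84e-17: no strain difference was called at E14.5, the signal in 129S2 was 19.8-fold below B6 at P1 and 92.4-fold at P7, and none was called at P90. For Cyp2b13 (adjusted p = 1.57e-09) the strains were apart at P1 and P7 and not at the other stages. For Cyp2b10 the adjusted p was 4.8e-09 in 1422257_s_at, 1.29e-09 in 1425645_s_at and 1.12e-10 in 1451787_at, with 129S2 above B6 at P90 by 2.89, 2.81 and 1.73 on the log2 scale and below it at P7 by the values in the report.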

How the results depend on the processing

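The counts of called differences (of 18 per stage: 0 at E14.5, 5 at P1, 7 at P7, 8 at P90) stayed within 1.5 times under the alternatives run. With a replicate block they were 0, 5, 7 and 8, with 5 probe sets in the strain by stage test, and 2 calls changed: at P7 the Cyp2b13 difference of D2 from B6 was lost (adjusted p = 0.0659) and the Cyp2b10 1422257_s_at difference of 129S2 from B6 was gained (adjusted p = 0.0256). The other 70 differences kept their side of the threshold. Leaving out 1 array gave 0 to 0, 4 to 6, 5 to 7 and 8 to 8 calls, and 5 to 5 probe sets in the strain by stage test. The counts between stages and tissues depended on the scaling. From P7 to P90 the count was 1, 3 on the values as deposited, 0 at 4-fold and 0 to 1 without 1 array. From P1 to P90 it was 1, 3 as deposited, 0 after median centring, 0 at 4-fold and 0 to 2 without 1 array. Between liver and brain at P90 it was 2, 1 as deposited, 0 at 4-fold and 1 to 2 without 1 array. The liver minus brain size of Cyp2b10 1422257_s_at in D2 at P90, 1.03, turned to -0.0754 as deposited, where array medians differ between tissues. Of the other values and calls under alternatives that kept all arrays, 237 kept their side of the threshold or moved within the replicate spread, 7 calls were lost and 42 sizes moved by more. Calls near the threshold were named with their values. Signals near the bottom of an array have no detection call, which limits folds against them.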
